A study of Homo sapiens with 24 samples.

Results

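The aminoacyl-tRNA synthetase genes were followed in 4 human cancer cell lines treated with Ocoxin, an oral supplement that combines extracts of plants with amino acids, minerals and vitamins. The members were the 35 listed synthetase genes whose symbols were matched to the Ensembl identifiers of the count tables, 19 of them cytosolic and 16 mitochondrial, out of 58051 genes counted. GARS1 and KARS1 encode the enzyme of both compartments and were kept with the cytosolic genes. RNA came from SW620 colon cells (COAD), BxPC-3 pancreatic cells (PAAD), LNCaP prostate cells (PRAD) and HCC-70 triple negative breast cells (TNBC), each an established line that stands for 1 tumor. Every line was kept for 48 h in medium with reduced serum, with Ocoxin or without it, and 3 control and 3 Ocoxin libraries were made of the cells still attached. Ocoxin was diluted 700-fold in COAD and TNBC, 500-fold in PAAD and 50-fold in PRAD, the dilutions that were near the IC50 of each line. Since control libraries carry the same dilution in their labels, controls and treated libraries were separated by the letters C and O of the titles. The labels do not say whether the 3 libraries of a group came from separate cultures, so the p-values measure the spread between these libraries only, which may be technical.

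Aminoacyl-tRNA synthetases load each amino acid onto its tRNA and so supply the ribosome. The cytosol and the mitochondrion use separate sets of these enzymes, all encoded in the nucleus, and by convention most mitochondrial genes end in 2. Several cytosolic synthetases are bound in a multisynthetase complex with the scaffold proteins AIMP1, AIMP2 and EEF1E1. When amino acids run short, uncharged tRNAs activate the kinase GCN2 (EIF2AK4), eIF2alpha is phosphorylated and the transcription factor ATF4 is made, which is known to raise many cytosolic synthetase genes together with amino acid transporters and synthesis enzymes.

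The libraries of COAD, PAAD and TNBC held 25160757 to 39009959 counts and those of PRAD 9063968 to 9520969. PRAD was counted in a separate run that did not use read pairs, so levels are compared between cell lines for COAD, PAAD and TNBC only. Markers of the labelled cells were present: KLK3, the prostate specific antigen, had 404 ± 5.81 CPM (TMM-normalized read counts scaled to library size; mean ± SD, n = 3) in LNCaP controls, VIL1, an intestinal villin, 526 ± 0.861 in SW620 and KRT7, a ductal keratin, 1051 ± 71.6 in BxPC-3. In SW620 the intestinal factor CDX1 had 0.0104 ± 0.0179 CPM. HCC-70 controls had no count of the progesterone receptor PGR, 6.85 ± 1.16 CPM of ESR1 and 248 ± 10.1 CPM of ERBB2, with 1600.0 ± 114 CPM of the basal keratin KRT5. KRT5 was also at 3133 ± 206 CPM in BxPC-3. The leukocyte marker PTPRC had a mean of at most 0.107 CPM in every group.

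In untreated cells the cytosolic synthetase genes were mostly higher than the mitochondrial ones. Levels of different genes were compared as CPM per kilobase of exon. The median over the 19 cytosolic genes was 42.1 CPM per kb in TNBC, 36.6 in PAAD and 34.4 in COAD, and that over the 16 mitochondrial genes was 7.05, 7.71 and 12.2. In PRAD, not ranked with the others, the medians were 38.2 and 19. No gene of the PRAD libraries exceeded 0.782 to 0.995 counts per exonic base after duplicate removal, and no member 0.568 to 0.619, whereas the highest gene of the other libraries had 34.1 to 49.0. Counts near such a limit hold down high levels, so the PRAD levels, their gap between compartments and the summed ratio may be compressed, which was not tested for levels. The ranges overlapped in each line, since IARS2, the mitochondrial isoleucyl enzyme, had a level of 61.3 ± 1.19 CPM per kb in COAD, 55.8 ± 1.12 in PRAD, 52.9 in TNBC and 40.8 in PAAD.

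The top of the order changed with the cell line. KARS1, the lysyl enzyme of both compartments, was highest in COAD at 146 ± 7.3 CPM per kb and was followed by AARS1, the alanyl enzyme, at 121 ± 0.757. In TNBC the order was led by AARS1 at 198 ± 3.68 and GARS1, the glycyl enzyme, at 142 ± 2.89, followed by EPRS1, the fused glutamyl and prolyl enzyme, at 115 ± 1.37. In PAAD the first 2 genes, TARS1 (threonyl) at 71.6 ± 2.1 and NARS1 (asparaginyl) at 69.9 ± 3.85, did not differ beyond their spread. The same held in PRAD for EPRS1 at 63.7 ± 1.4 and AARS1 at 61.1 ± 1.2, whose means lay within the sum of their SDs. SARS2 was last in every line, from 0.32 to 2.66 CPM per kb, but 57% of its exonic bases are shared with other genes and reads on shared bases were not counted, so its level is a lower estimate. CARS1 was low for a cytosolic gene, with 6.56 ± 0.382 CPM per kb in PRAD.

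**Figure D1:**
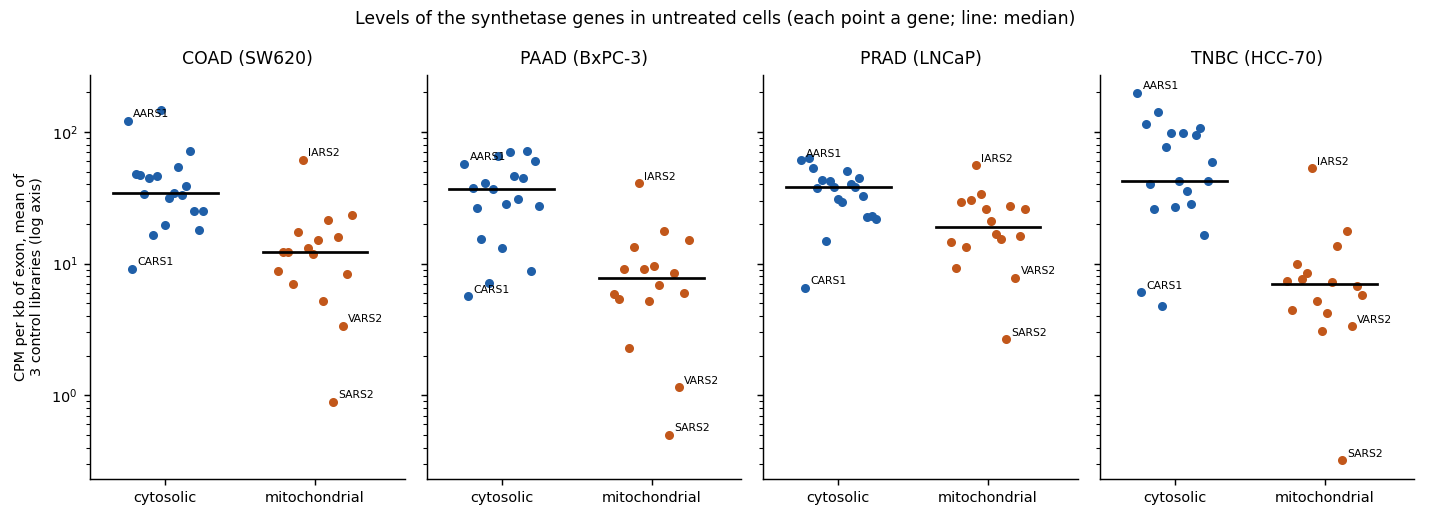
Levels of the 35 genes in untreated cells, in CPM per kb of exon on a log axis, 1 panel per cell line. Each point is the mean of 3 control libraries of 1 gene, and the black lines are the medians of the cytosolic and mitochondrial genes, 42.1 against 7.05 in TNBC, 36.6 against 7.71 in PAAD and 34.4 against 12.2 in COAD, and 38.2 against 19 in PRAD, where counts per base were limited.

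The response to Ocoxin was small in size for every synthetase gene and differed between the cell lines. The change was tested within each line with the quasi-likelihood test of edgeR over all genes with enough counts, and a gene was called altered at a Benjamini-Hochberg adjusted p under 0.05. All 35 members passed the filter on low counts in all 4 lines. CPM are shares of the sequenced RNA, so a change in the total RNA of a cell cannot be told apart from them. In PAAD, 6 of the 19 cytosolic genes were upregulated and 2 downregulated, while 4.72% of the 17280 genes tested in this line were upregulated and 3.62% downregulated. In TNBC, 5 cytosolic genes were upregulated and 1 downregulated, against 9.65% and 11.3% of all 17352 genes. In COAD, 1 cytosolic gene was downregulated, against 1.09% of 17659 genes, and in PRAD 1 was upregulated, against 2.4% of 17070 genes.

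Of the 16 mitochondrial genes, 1 was upregulated in COAD (1.47% of all genes), 1 was downregulated in PAAD, and 1 rose and 1 fell in TNBC. In PRAD edgeR called none of the 16, where 2.98% of all genes were altered in either direction. There 4 of the 16 had an unadjusted p under 0.05, and DESeq2 called none of them either. The median log2 fold change of the cytosolic genes was 0.07 in PAAD, 0.06 in TNBC, 0.03 in PRAD and -0.08 in COAD, and that of the mitochondrial genes was -0.02, 0.06, -0.06 and -0.04. Over all genes tested the medians lay between -0.0053 and 0.0088.

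**Figure D2:**
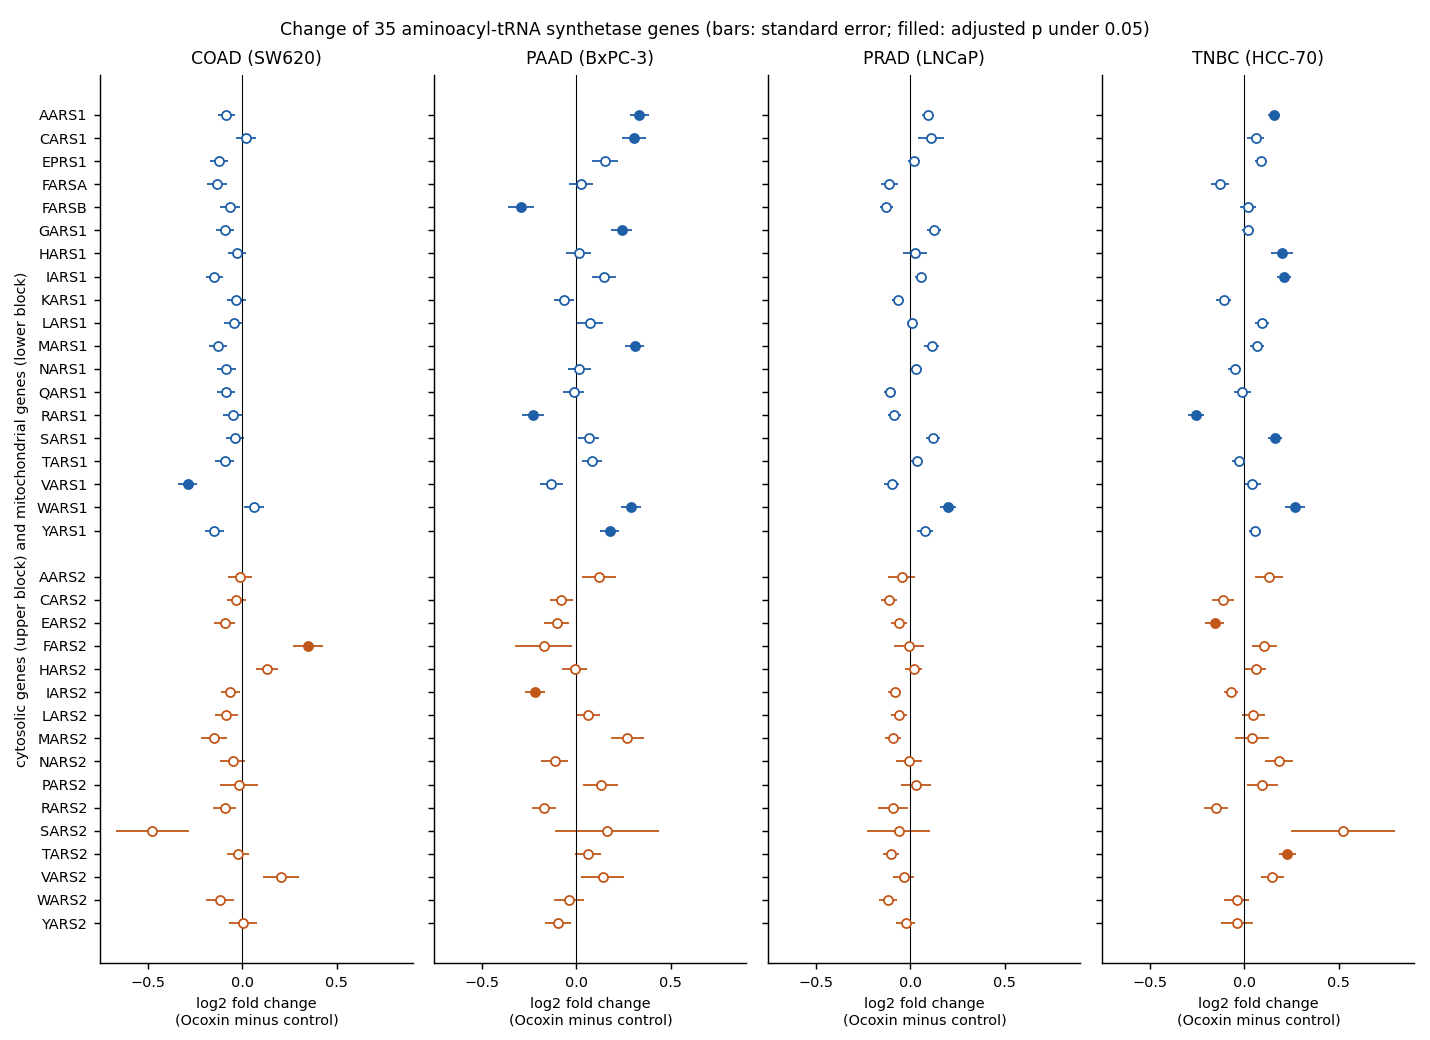
Log2 fold change (Ocoxin minus control) of each synthetase gene in the 4 cell lines, with the standard error as a bar. Cytosolic genes are in blue above and mitochondrial genes in orange below, and filled points had an adjusted p under 0.05: 8 cytosolic genes in PAAD, 6 in TNBC and 1 each in COAD and PRAD, and at most 2 mitochondrial genes in any line.

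Alanyl-tRNA synthetase showed the largest increase of a cytosolic gene. AARS1 (ENSG00000090861, chromosome 16 of hg38, 70252295 to 70289543) had 248, 266 and 258 CPM in the PAAD controls and 323, 320 and 330 CPM with Ocoxin. The groups did not overlap, and the log2 fold change was 0.33 ± 0.052 (SE, edgeR adjusted p = 0.000845). In TNBC, where its level was above those of COAD and PAAD, the mean went from 890 ± 16.6 to 992 ± 15 CPM (SD, n = 3), a log2 fold change of 0.16 ± 0.0311 with an edgeR adjusted p of 0.00376. In PRAD the log2 fold change was 0.10 (edgeR adjusted p = 0.141) and in COAD -0.08 (0.36), and AARS1 was called altered in neither.

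MARS1, the methionyl enzyme of the multisynthetase complex (ENSG00000166986, chromosome 12, 57475445 to 57517569), had 201, 206 and 195 CPM in the PAAD controls. With Ocoxin the 3 libraries had 251, 250 and 245 CPM, all above the controls, with a log2 fold change of 0.31 ± 0.0517 (edgeR adjusted p = 0.00163). The other lines gave values of 0.11 in PRAD, 0.07 in TNBC and -0.13 in COAD, none of them called. Of the exonic bases of MARS1, 12.4% are shared with ARHGAP9 and with DDIT3, a stress gene whose own log2 fold change in PAAD was 0.19 (edgeR adjusted p = 0.218).

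CARS1, the cysteinyl enzyme (ENSG00000110619, chromosome 11, 3000922 to 3057613), rose in PAAD from 55.9, 60.3 and 54 CPM to 69.2, 68.7 and 72.1 CPM. The lowest treated library was above the highest control, and the log2 fold change was 0.30 ± 0.0635 (edgeR adjusted p = 0.00794). In the other 3 lines its log2 fold change lay between 0.02 and 0.11 and was not called.

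WARS1, the tryptophanyl enzyme, which interferon is also known to induce, was called in 3 of the 4 lines (ENSG00000140105, chromosome 14, 100333788 to 100376805). In PAAD the controls had 370, 395 and 374 CPM and the treated libraries 455, 476 and 462 CPM (log2 fold change 0.29 ± 0.0517, edgeR adjusted p = 0.00254). In TNBC the controls had 264, 263 and 275 CPM and the treated libraries 311, 302 and 353 CPM (0.27 ± 0.0527, edgeR adjusted p = 0.00422). In PRAD the controls had 148, 147 and 143 CPM and the treated libraries 175, 166 and 162 CPM (0.20 ± 0.0408, edgeR adjusted p = 0.0467). No group of treated libraries overlapped its controls in these 3 lines, and in COAD the value was 0.06 with an adjusted p of 0.616. The PRAD call was lost when any 1 of the 6 libraries was left out, with adjusted p values between 0.0548 (Ocoxin replicate 3 left out) and 0.168 (Ocoxin replicate 2 left out), and with DESeq2 (adjusted p = 0.152). Calls over all genes fell as well, from 409 higher and 99 lower to 315 and 83 without Ocoxin replicate 3 and 3 and 0 without Ocoxin replicate 2. The WARS1 call was also lost in edgeR with DESeq2 size factors (adjusted p = 0.0543), without the length trend (0.0671), with the saturation correction (0.0507) and in the fit of all 24 libraries (0.0783). WDR25 and another gene share 10.6% of the exonic bases of WARS1.

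**Figure D3:**
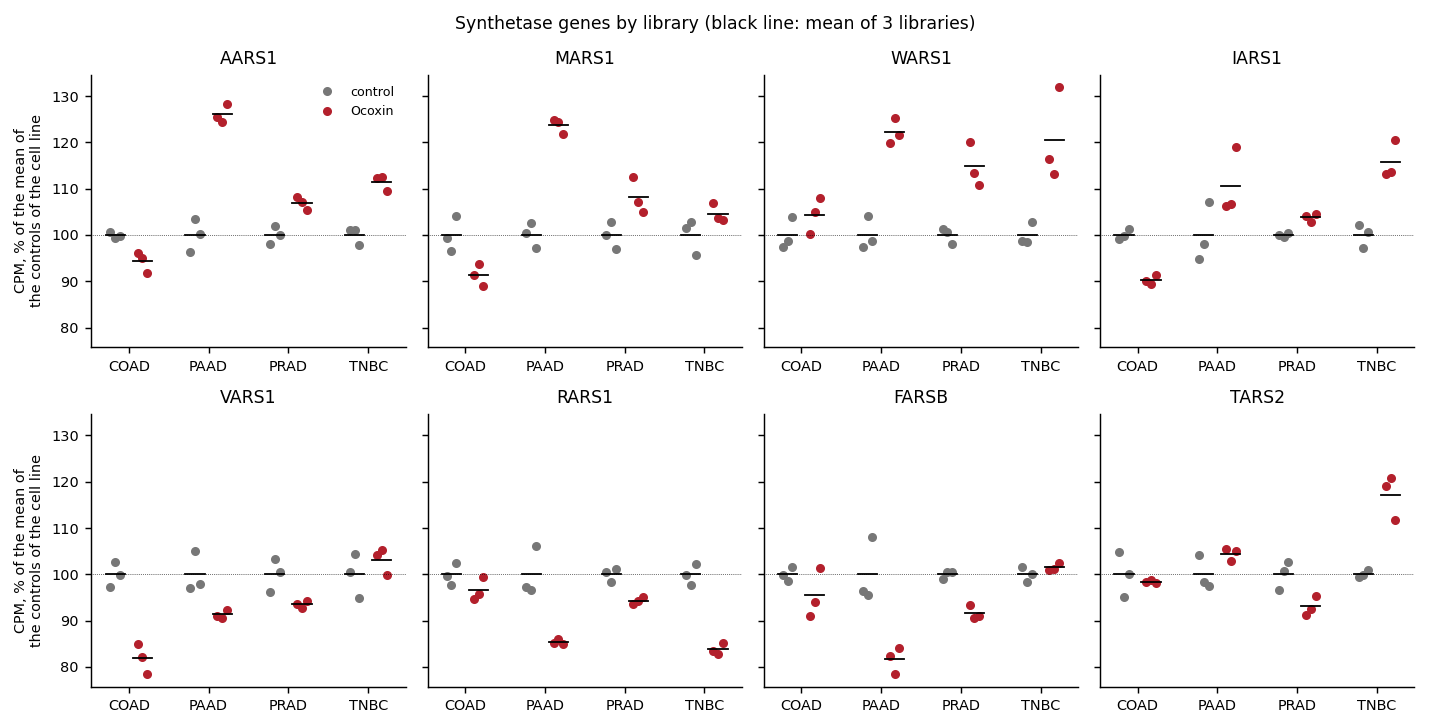
CPM of 8 synthetase genes in every library, as a percent of the mean of the 3 controls of the same line. Grey points are controls, red points Ocoxin, and black lines the means: AARS1 and MARS1 stood clearest above the controls in PAAD, WARS1 in PAAD, PRAD and TNBC, RARS1 stood below them in PAAD and TNBC, VARS1 in COAD and TARS2 above them in TNBC.

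The remaining increases of cytosolic genes were of similar or smaller size. In PAAD, GARS1 went from 169 ± 6.56 to 199 ± 4.64 CPM (log2 fold change 0.24 ± 0.0542, edgeR adjusted p = 0.0119) and YARS1, the tyrosyl enzyme, from 225 ± 6.58 to 255 ± 3.37 CPM (0.18 ± 0.0516, edgeR adjusted p = 0.0461). Neither was called in another line, where GARS1 gave -0.09, 0.13 and 0.02 and YARS1 -0.15, 0.08 and 0.06 in COAD, PRAD and TNBC. The YARS1 call was lost without any 1 of the 6 PAAD libraries (adjusted p between 0.0697, control replicate 3 left out, and 0.198, Ocoxin replicate 2 left out). The GARS1 call was lost without control replicate 2 (0.0536), Ocoxin replicate 1 (0.0521) or Ocoxin replicate 2 (0.0514).

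In TNBC, IARS1, the isoleucyl enzyme of the complex, had 583, 556 and 575 CPM in the controls and 646, 650 and 689 CPM with Ocoxin, with no overlap (log2 fold change 0.21 ± 0.0361, edgeR adjusted p = 0.00154). SARS1, the seryl enzyme, had 360, 378 and 355 CPM against 404, 404 and 418 CPM, again without overlap (0.16 ± 0.036, edgeR adjusted p = 0.00669). HARS1, the histidyl enzyme, had 36.5, 41.6 and 42.1 CPM against 44.9, 47.0 and 46.1 CPM (0.20 ± 0.0607, edgeR adjusted p = 0.0336). HARS1 and HARS2 lie head to head on chromosome 5 and overlap, and 18.3% of the exonic bases of HARS1 are shared. The HARS1 call was lost without control replicate 1 (adjusted p = 0.134), control replicate 2 (0.0538), Ocoxin replicate 1 (0.0703) or Ocoxin replicate 2 (0.117), and when a trend with gene length was removed (0.103).

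Other cytosolic genes fell. RARS1, the arginyl enzyme of the complex (ENSG00000113643, chromosome 5, 168486445 to 168519299), was downregulated in both lines with many upregulated synthetases. In TNBC it had 96.3, 94.2 and 98.6 CPM in the controls and 80.5, 79.8 and 82.2 CPM with Ocoxin (log2 fold change -0.25 ± 0.0416, edgeR adjusted p = 0.0012). In PAAD the mean went from 106 ± 5.68 to 90.3 ± 0.627 CPM (-0.23 ± 0.0587, edgeR adjusted p = 0.0254). The treated libraries lay below the controls in both lines. The PAAD call was lost without control replicate 2 (adjusted p = 0.0511), Ocoxin replicate 1 (0.0996) or Ocoxin replicate 2 (0.105), while the TNBC call was kept without each of its 6 libraries.

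FARSB, the beta subunit of the phenylalanyl enzyme, had 50.4, 50.0 and 56.5 CPM in the PAAD controls and 43.1, 41 and 44 CPM with Ocoxin (log2 fold change -0.29 ± 0.0694, edgeR adjusted p = 0.0158). The call was lost without Ocoxin replicate 1 (0.0608) or Ocoxin replicate 2 (0.105). Its partner subunit FARSA gave 0.02 (edgeR adjusted p = 0.864) in the same cells. VARS1, the valyl enzyme, was the only cytosolic gene called in COAD, with 147, 155 and 151 CPM in the controls and 128, 124 and 119 CPM with Ocoxin (-0.29 ± 0.0501, edgeR adjusted p = 0.00276). All 3 treated libraries were below the controls, and the call was kept without each of the 6 COAD libraries.

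In COAD 17 of the 19 cytosolic genes had a log2 fold change below 0, with a range from -0.29 to 0.06, although the test called VARS1 alone. In PRAD 13 of the 19 lay above 0, from -0.13 to 0.20. The PRAD calls depended on whether each library's trend with exonic length was removed. After the removal 5 cytosolic and 3 mitochondrial genes were called, all lower, against 2.7% of all genes called higher and 6.51% lower. These were FARSB at -0.21, FARSA at -0.19, QARS1 (glutaminyl) at -0.17, RARS1 at -0.16 and VARS1 at -0.16, with CARS2 at -0.21, TARS2 at -0.17 and IARS2 at -0.15. The median log2 fold change of the cytosolic genes in PRAD was then -0.04 and that of all genes -0.063, against 0.03 and 0.0088 without the removal. The removal lowered the values of all genes, and the cytosolic median lay above that of all genes in both cases.

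The complex-bound genes and the structural classes were counted in the same way. Of the 7 synthetases of the multisynthetase complex (EPRS1, IARS1, KARS1, LARS1, MARS1, QARS1 and RARS1), MARS1 rose and RARS1 fell in PAAD, and IARS1 rose and RARS1 fell in TNBC. All 7 lay below 0 in COAD, with a median log2 fold change of -0.09 against -0.0053 for all genes and with edgeR calling none of them, although 3 had an unadjusted p under 0.05 and DESeq2 called IARS1. Class I and class II synthetases differ in the fold of the catalytic site, and EPRS1 joins an enzyme of each. In TNBC 4 of 16 class II genes (AARS1, HARS1, SARS1 and TARS2) were upregulated, and among 18 class I genes 2 were upregulated (IARS1 and WARS1) and 2 downregulated (EARS2 and RARS1), where 9.65% of all genes were upregulated and 11.3% downregulated. In PAAD 4 of the 18 class I genes rose and 2 fell, and 2 of the 16 class II genes rose and 1 fell, where the shares of all genes were 4.72% and 3.62%. With so few genes these counts are a description, and the classes were not compared by a test.

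Of the 19 cytosolic genes, 7 were called in no line: EPRS1, FARSA, KARS1, LARS1, NARS1, QARS1 and TARS1. Their log2 fold changes lay between -0.13 and 0.15, the upper end being EPRS1 in PAAD. In TNBC EPRS1 had 625, 620 and 635 CPM in the controls and 662, 666 and 673 CPM with Ocoxin, without overlap, yet its log2 fold change of 0.09 ± 0.0306 missed the threshold (edgeR adjusted p = 0.0531). KARS1 missed it as closely in the other direction, with 402, 406 and 384 CPM against 376, 375 and 355 CPM (-0.11 ± 0.0375, edgeR adjusted p = 0.0572).

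The 13 cytosolic genes known as ATF4 targets and the other 6 were also counted apart. In PAAD 6 of the 13 were upregulated (AARS1, MARS1, CARS1, WARS1, GARS1 and YARS1) with a median log2 fold change of 0.15, whereas among the other 6 genes 2 fell (FARSB and RARS1) and the median was -0.04. In TNBC 4 of the 13 were upregulated (WARS1, IARS1, SARS1 and AARS1) with a median of 0.07, and of the other 6 HARS1 rose and RARS1 fell, where 9.65% of all genes rose and 11.3% fell. In PAAD these shares were 4.72% and 3.62%, and the genes known as ATF4 targets were not tested against the other 6. In PRAD 12 of the 13 lay above 0 and WARS1 was called, and 5 of the other 6 lay below 0. In COAD 11 of the 13 lay below 0, and VARS1 fell.

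The integrated stress response genes gave other counts than the synthetases in the same libraries. Of 21 such genes, 6 were upregulated in COAD, 15 in PAAD, 10 in TNBC with 1 downregulated, and 10 in PRAD. The shares of all genes upregulated were 1.47%, 4.72%, 9.65% and 2.4% in that order, and 11.3% of all genes were downregulated in TNBC. From these same libraries the paper had already reported CHAC1, ADM2, SESN2 and TRIB3 as upregulated in every line. It also measured these genes by RT-qPCR in cells treated for 48 h and reported the same direction in every line. The list was chosen with such results known, so the counts are a description and no independent test of these 21 genes. The median log2 fold change of the 21 genes was 0.473 in PAAD (range 0.135 to 1.376) and 0.385 in PRAD (0.039 to 1.097). It was 0.194 in COAD (-0.128 to 0.988) and 0.168 in TNBC (-0.253 to 0.696). In PAAD CHAC1, which breaks down glutathione, had a log2 fold change of 1.38 ± 0.11 (edgeR adjusted p = 1.23e-06). ASNS, which makes asparagine, had 1.20 ± 0.0765 there (edgeR adjusted p = 1.66e-07). PSAT1, of serine synthesis, had 1.20 ± 0.0718 (edgeR adjusted p = 1.01e-07). In COAD the 5 synthetases of the ATF4 group with an unadjusted p under 0.05 (VARS1, YARS1, IARS1, MARS1 and EPRS1) were all lower with Ocoxin. Of these 5, DESeq2 called VARS1 and IARS1. In the same cells ADM2 gave 0.89 ± 0.168, SESN2 0.87 ± 0.126 and CHAC1 0.65 ± 0.136 (edgeR adjusted p = 0.00582, 0.000489 and 0.0116). In PRAD CHAC1 gave 1.03 ± 0.113 and ATF3 1.10 ± 0.173 (edgeR adjusted p = 0.0126 and 0.0257). A separate list held 7 genes of the eIF2alpha kinases and of eIF2. In TNBC EIF2AK4, the kinase GCN2, rose by 0.34 ± 0.0585 on the log2 scale (edgeR adjusted p = 0.00155). EIF2S1, the alpha subunit of eIF2, fell there by 0.14 (edgeR adjusted p = 0.0261). The other 5 were not called in TNBC, where 9.65% of all genes were upregulated and 11.3% downregulated. In COAD, PAAD and PRAD edgeR and DESeq2 called none of the 7.

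The composite C/EBP-ATF element, to which ATF4 is known to bind, was looked for as TGATGNAA on both strands of the RefSeq promoter windows, which run from 250 bases before to 50 bases after each gene's start (GRCh38.p14). Windows were matched for 30 of the 35 genes, all but AARS2, LARS1, VARS1, VARS2 and YARS1. The letters were found in 7 of 16 cytosolic genes and in 1 of 14 mitochondrial genes, while 4.46% of all 27305 genes with a window held them, or 3.62% of all 35116 windows. The match is a description and no evidence of binding. The sequences are shown because 4 of these 7 cytosolic genes (AARS1, CARS1, GARS1 and MARS1) were upregulated in PAAD and 2 (AARS1 and IARS1) in TNBC. Of the 9 cytosolic genes whose windows lack the letters, 1 rose and 2 fell in PAAD, and 3 rose and 1 fell in TNBC. The shares of all genes upregulated and downregulated were 4.72% and 3.62% in PAAD and 9.65% and 11.3% in TNBC. Capitals mark the element, and each run is given on the strand of the gene, so that an element on the other strand reads as its reverse complement.
AARS1, chr16:70289675-70289704, minus strand: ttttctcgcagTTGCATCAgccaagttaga
CARS1, chr11:3057407-3057436, minus strand: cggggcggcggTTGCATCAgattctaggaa
GARS1, chr7:30594834-30594863, plus strand: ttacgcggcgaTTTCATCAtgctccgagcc
IARS1, chr9:92293692-92293721, minus strand: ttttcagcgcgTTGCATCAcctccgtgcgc
MARS1, chr12:57488053-57488082, plus strand: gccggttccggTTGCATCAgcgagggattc
NARS1, chr18:57621804-57621833, minus strand: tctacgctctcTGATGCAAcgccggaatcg
TARS1, chr5:33440956-33440985, plus strand: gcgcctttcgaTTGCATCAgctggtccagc
YARS2, chr12:32756076-32756105, minus strand: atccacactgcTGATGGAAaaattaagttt

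The first base of the element was at -187 from the start in AARS1, -33 in GARS1, -13 in IARS1, -4 in MARS1, -2 in CARS1, 3 in TARS1 and 15 in NARS1, and at -197 in the mitochondrial YARS2. The 7 cytosolic genes with the letters had log2 fold changes from 0.02 to 0.33 in PAAD with a median of 0.24, and the 9 without them from -0.29 to 0.29 with a median of 0.01. In PRAD the medians were 0.10 and -0.07, in TNBC 0.06 and 0.02 and in COAD -0.09 and -0.05. NARS1 and TARS1 hold the letters and gave 0.02 and 0.08 in PAAD, neither of them called, and WARS1 rose in PAAD without them. None of the differences between genes with and without the letters was tested.

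The mitochondrial genes that passed the test were single genes in each line. FARS2, the phenylalanyl enzyme (ENSG00000145982, chromosome 6, 5261044 to 5771580), had 16.52, 16.27 and 16.32 CPM in the COAD controls and 19.97, 20.12 and 22.41 CPM with Ocoxin, without overlap (log2 fold change 0.35 ± 0.0802, edgeR adjusted p = 0.0212). The call was lost without control replicate 1 (0.082), control replicate 2 (0.112), Ocoxin replicate 2 (0.0695) or Ocoxin replicate 3 (0.079). IARS2 (ENSG00000067704, chromosome 1, 220094102 to 220148041), the most abundant mitochondrial gene, had 172, 168 and 170 CPM in the PAAD controls and 146, 144 and 148 CPM with Ocoxin (-0.22 ± 0.0518, edgeR adjusted p = 0.0157). No treated library reached a control, yet the call was lost without control replicate 2 (0.0532), Ocoxin replicate 1 (0.0727) or Ocoxin replicate 2 (0.105).

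In TNBC, TARS2, the threonyl enzyme (ENSG00000143374, chromosome 1, 150487364 to 150507609), had 71.1, 71.4 and 72.3 CPM in the controls and 85.2, 86.5 and 79.9 CPM with Ocoxin (log2 fold change 0.23 ± 0.0455, edgeR adjusted p = 0.00388). The groups did not overlap, and the call was kept without each of the 6 libraries. EARS2, the glutamyl enzyme, had 57.3, 58.3 and 55.5 CPM against 50.7, 50.3 and 52.4 CPM (-0.16 ± 0.0476, edgeR adjusted p = 0.0333), and its call was lost without control replicate 1 (0.0952), control replicate 2 (0.106), Ocoxin replicate 1 (0.11) or Ocoxin replicate 2 (0.117). The values farthest from 0 among the mitochondrial genes were those of SARS2, -0.48 ± 0.194 in COAD and 0.52 ± 0.276 in TNBC, but neither was called at levels of 1.03 to 2.90 CPM in the controls (edgeR adjusted p = 0.222 and 0.206).

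The other mitochondrial genes called in no line were AARS2, CARS2, HARS2, LARS2, MARS2, NARS2, PARS2, RARS2, VARS2, WARS2 and YARS2. Their log2 fold changes ran from -0.17 for RARS2 in PAAD to 0.27 for MARS2 in PAAD. MARS2, the methionyl enzyme, had 16.68, 15.42 and 14.87 CPM in the PAAD controls and 18.05, 20.14 and 18.43 CPM with Ocoxin, without overlap, and had the lowest adjusted p of these genes (0.27 ± 0.088, edgeR adjusted p = 0.0729). In COAD and PRAD the treated libraries of MARS2 lay below the controls, with values of -0.15 and -0.09 that were not called. NARS2, the asparaginyl enzyme, gave 0.19 in TNBC (edgeR adjusted p = 0.101) and -0.12 in PAAD (0.365).

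The cytosolic and the mitochondrial gene of the same amino acid could be set side by side 1 to 1 for 13 amino acids. FARSA and FARSB share the partner FARS2, and EPRS1 has the partners EARS2 and PARS2, so these 4 pairs were counted apart. In PAAD CARS1 gave a log2 fold change of 0.30 and CARS2 -0.08, IARS1 0.15 and IARS2 -0.22, and WARS1 0.29 and WARS2 -0.04. The methionyl pair had like values there, with 0.31 for MARS1 and 0.27 for MARS2. The arginyl pair lay below 0 in all 4 lines, with -0.23 for RARS1 and -0.17 for RARS2 in PAAD and -0.25 and -0.15 in TNBC, and RARS2 was called in no line. In COAD VARS1 gave -0.29 and VARS2 0.20, which was not called and whose exonic bases are shared by 22% with GTF2H4. The cytosolic gene had the higher log2 fold change in 10 of 13 pairs in PAAD, in 12 in PRAD, in 8 in TNBC and in 6 in COAD, with median differences of 0.04, 0.14, 0.03 and -0.03. With the 4 further pairs it was higher in 13 of 17 in PAAD, in 13 in PRAD, in 9 in TNBC and in 6 in COAD. Both phenylalanyl pairs had the lower value in the cytosolic gene in PRAD (differences of -0.10 and -0.12), in COAD (-0.48 and -0.41) and in TNBC (-0.23 and -0.09). In PAAD the difference was 0.20 for FARSA and -0.12 for FARSB.

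**Figure D4:**
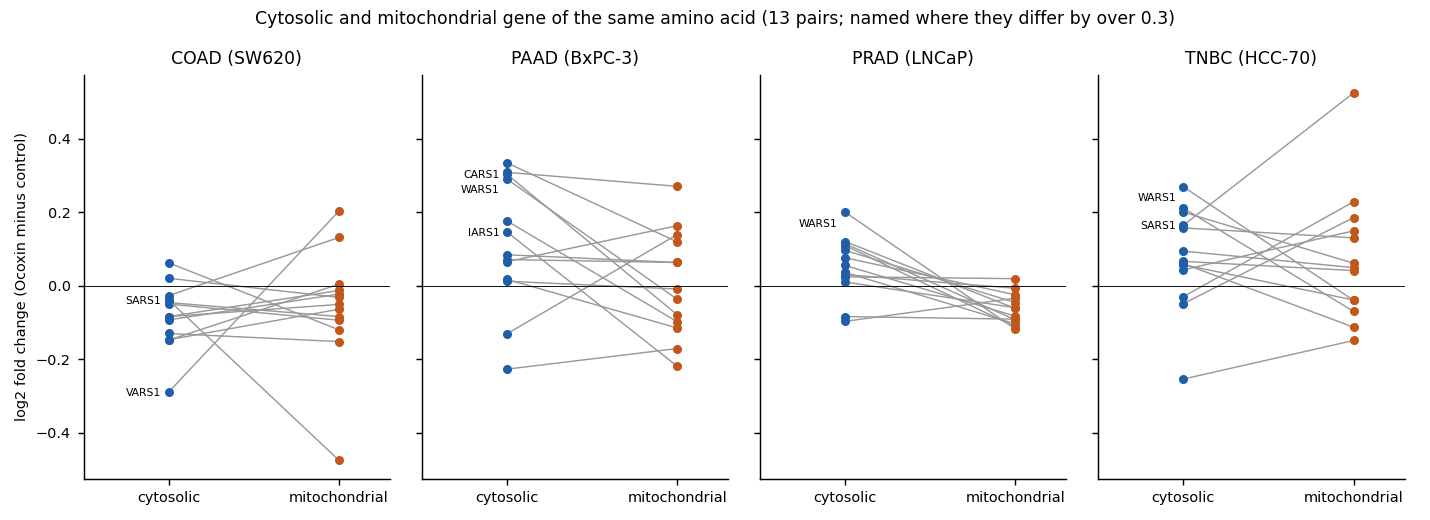
Log2 fold change of the cytosolic gene (blue) and the mitochondrial gene (orange) of the same amino acid, joined by a line, for the 13 amino acids with 1 gene for each compartment (the phenylalanyl, glutamyl and prolyl pairs are not drawn). Lines mostly slope down in PRAD (12 of 13) and PAAD (10 of 13) and have no common slope in COAD (6 of 13) and TNBC (8 of 13).

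The summed level of all cytosolic genes was 3487, 3583 and 3603 CPM in the PAAD controls and 3808, 3868 and 3965 CPM with Ocoxin, without overlap. The sum of the mitochondrial genes was lower with Ocoxin in the same cells, 620, 612 and 606 CPM against 576, 581 and 593 CPM. The ratio of both sums went from 5.81 ± 0.17 to 6.65 ± 0.04 in PAAD (SD, n = 3), from 2.5 ± 0.072 to 2.66 ± 0.085 in PRAD and from 9.89 ± 0.056 to 10.3 ± 0.15 in TNBC. In COAD it went from 4.46 ± 0.059 to 4.3 ± 0.066. In TNBC the cytosolic sum rose from 6368 ± 50.5 to 6688 ± 24.4 CPM, while the mitochondrial sum was 644 ± 1.68 and 645 ± 7.74 CPM. In COAD the cytosolic sum was 4307 ± 98.6 CPM in controls and 4058 ± 44.5 CPM with Ocoxin. These sums are given as a description, without a test, and abundant genes weigh most in them.

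**Figure D5:**
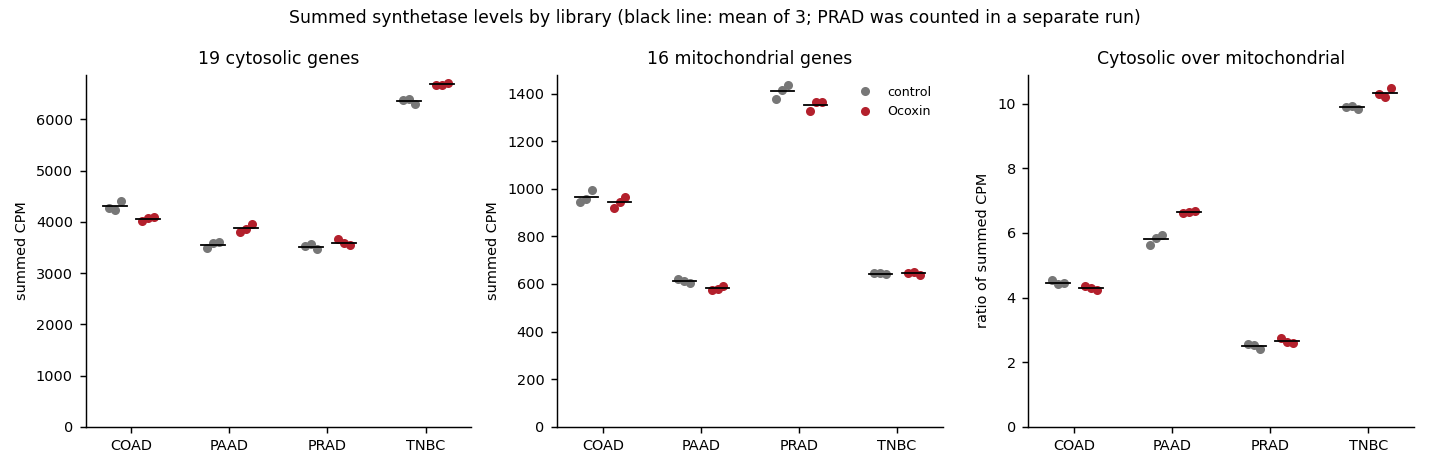
Summed CPM of the 19 cytosolic and the 16 mitochondrial genes and their ratio in each library, with the mean of 3 libraries as a black line and all axes from 0. The ratio lay higher with Ocoxin than in the controls in PAAD (6.65 against 5.81), PRAD (2.66 against 2.5) and TNBC (10.3 against 9.89), and lower in COAD (4.3 against 4.46).

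Whether the responses differed between lines was tested with an interaction term in 1 fit of all 24 libraries. The cell line and the dilution cannot be told apart in these differences, except between COAD and TNBC, which had the same dilution, and for PRAD the counting run is a further difference. Between COAD and PAAD, 9 of the 35 genes differed in response, against 3.44% of all 24631 genes. AARS1 differed by -0.42 ± 0.0516 (COAD minus PAAD, log2, edgeR adjusted p = 4.41e-06), MARS1 by -0.43 ± 0.0613 (4.43e-05), GARS1 by -0.33 ± 0.0575 (0.000782), YARS1 by -0.32 ± 0.0601 (0.00161) and IARS1 by -0.29 ± 0.0661 (0.00954). These 5 calls were kept without each of the 12 libraries of both lines.

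Between COAD and TNBC, with the same dilution, 6 genes differed, against 6.78% of all genes. IARS1 differed by -0.35 ± 0.0658 (COAD minus TNBC, edgeR adjusted p = 0.000878), VARS1 by -0.32 ± 0.0685 (0.00302) and AARS1 by -0.23 ± 0.0513 (0.00458), and these 3 calls were kept without each of the 12 libraries. Between PAAD and TNBC 4 genes differed (4.01% of all genes), with MARS1 higher in response in PAAD by 0.25 ± 0.0609 (edgeR adjusted p = 0.0115). Between PAAD and PRAD 3 genes differed (3.29% of all genes), and AARS1 responded more in PAAD by 0.27 ± 0.0531 (edgeR adjusted p = 0.00214). Between PRAD and TNBC TARS2 alone differed, by -0.35 ± 0.0747 (PRAD minus TNBC, edgeR adjusted p = 0.00422), where 3.59% of all genes did.

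Between COAD and PRAD edgeR called none of the 35 genes, where 0.832% of all genes differed. Of the 35, 8 had an unadjusted p under 0.05, and DESeq2 called 1. In the 4 lines no synthetase gene was called altered in all of them, and WARS1, AARS1 and RARS1 were those called in more than 1 line.

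Partners of the synthetases were mostly not called. None of the scaffold genes AIMP1, AIMP2 and EEF1E1 was called in any line by edgeR or DESeq2, with log2 fold changes from -0.25 for AIMP2 in PAAD to 0.17 for AIMP2 in TNBC, each with an unadjusted p under 0.05. Of the 6 genes around mitochondrial aminoacylation (GATB, GATC, QRSL1, MTFMT, TUFM and TSFM), edgeR and DESeq2 called none in any line, and 2 had an unadjusted p under 0.05, both in TNBC. Among genes of tRNA proofreading and selenocysteine, SEPSECS, which makes selenocysteine on its tRNA, rose in PRAD from 72.7 ± 0.478 to 86.6 ± 4.09 CPM (log2 fold change 0.25 ± 0.0491, edgeR adjusted p = 0.0411). In TNBC it rose from 12 ± 0.833 to 15.3 ± 1.19 CPM (0.35 ± 0.089, edgeR adjusted p = 0.0147). It was the 1 gene of these 5 that edgeR called in PRAD and in TNBC, where 2.4% and 9.65% of all genes were upregulated. In COAD and PAAD edgeR called none of the 5. DESeq2 called none of the 5 in PRAD.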

How the data were processed

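RNA of 24 libraries (3 control and 3 Ocoxin libraries for each of 4 cell lines) was sequenced from stranded mRNA libraries. For trimming the authors used fastp, for alignment to hg38 STAR, for duplicate removal picard and for counting featureCounts 2.0.3, which took primary alignments on exons per gene. The deposited values are whole read counts without normalization, and no count column was left unmapped. The paired-end option was off for PRAD and on for the 3 other lines, neither run used strand, and reads on bases of overlapping genes were dropped, so the values of overlapping genes, antisense genes included, are uncertain.

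Counts were filtered (filterByExpr), scaled (TMM) and tested per line with the two-sided robust quasi-likelihood F-test of edgeR 4.0.16 in R 4.3.3. P-values were Benjamini-Hochberg adjusted over all genes tested, with a threshold of 0.05 and no minimum fold. CPM are TMM-normalized within a line. Interactions were tested in 1 fit of 8 groups. Depth was 9063968 to 39009959 counts, and no pair of replicates agreed within sampling noise (chi-square per degree of freedom 1.86 to 15.3). The fits were tested on simulated data.

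Alternatives were no filter, DESeq2 1.42.0 or its size factors, the replicate number as a block, removal of length trends (splines with 5 degrees of freedom) with and without the block, a correction of PRAD for saturation, all 24 libraries in 1 fit, 1 counting run only, and each library left out. Removal of length and GC trends was added after the data were seen. All members were eligible to be named. Values per library were given for the 5 called genes with the largest change per line and compartment, and genes of other lists were named if called, at most 6 per line, besides markers, scaffold genes, ATF4-related partners and overlapping neighbours. The values per library of EPRS1, KARS1 and MARS2, which were not called, were picked after their values were seen. The members and lists were chosen with earlier results of these data known. The promoter windows and sequences are from RefSeq (GRCh38.p14).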

Additional observations from a re-analysis of the deposited data

Results flagged for a closer look

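These are the genes whose response to Ocoxin differed between lines by the interaction test of edgeR (adjusted p under 0.05), as differences of log2 fold changes. COAD minus PAAD was -0.43 for MARS1, -0.42 for MARS2, -0.42 for AARS1, -0.33 for GARS1, -0.32 for YARS1, -0.29 for IARS1, -0.28 for CARS1, -0.27 for EPRS1 and 0.52 for FARS2. The MARS2 call was lost without PAAD Ocoxin replicate 2 (adjusted p = 0.0614) or COAD Ocoxin replicate 2 (0.0535). The EPRS1 call was lost without PAAD control replicates 1 or 2, PAAD Ocoxin replicate 3, COAD control replicates 1 or 2 or COAD Ocoxin replicate 2 (0.0568 to 0.0944). That of CARS1 was kept only without PAAD control replicate 2 or COAD Ocoxin replicates 1 or 2, and was otherwise lost (0.0524 to 0.121). That of FARS2 was lost without control replicates 1 or 2 of either line, Ocoxin replicate 2 of either line or Ocoxin replicate 3 of either line (0.0616 to 0.196). Of 9 other alternatives of processing, the call was kept under 5 for CARS1 and 6 for FARS2.

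COAD minus TNBC was -0.35 for IARS1, -0.32 for VARS1, -0.24 for TARS2, -0.23 for AARS1, -0.19 for YARS1 and 0.22 for RARS1. The YARS1 call was kept only without COAD control replicate 2 and otherwise lost (0.0506 to 0.127). The TARS2 call was kept only without COAD control replicate 2 or TNBC Ocoxin replicate 3 (0.0588 to 0.147 otherwise), and the RARS1 call only without COAD control replicate 3, COAD Ocoxin replicate 1 or TNBC Ocoxin replicate 3 (0.0587 to 0.119 otherwise). The 9 other alternatives kept the call under 4 for YARS1, 7 for TARS2 and 6 for RARS1.

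PAAD minus PRAD was 0.22 for MARS1, 0.27 for AARS1 and 0.39 for MARS2. The MARS1 call was kept only without PRAD Ocoxin replicate 1 (0.0528 to 0.131 otherwise). That of MARS2 was lost without PRAD control replicate 3, any PRAD Ocoxin replicate, PAAD control replicates 2 or 3 or PAAD Ocoxin replicate 2 (0.0559 to 0.0965). PAAD minus TNBC was -0.30 for FARSB, 0.19 for AARS1, 0.23 for GARS1 and 0.25 for MARS1. The FARSB call was lost without PAAD control replicate 3 (0.0662) or PAAD Ocoxin replicate 2 (0.0558) and that of GARS1 without TNBC control replicate 2 (0.0565). The AARS1 call was lost without PAAD control replicate 1, PAAD Ocoxin replicates 2 or 3, TNBC control replicates 1 or 2 or any TNBC Ocoxin replicate (0.0544 to 0.0914). Under the 9 other alternatives the PAAD and TNBC difference was kept under 4 for AARS1 and 8 for GARS1. The PAAD and PRAD difference was kept under 6 of 9 for MARS1 and 8 of 9 for MARS2. PRAD minus TNBC was -0.35 for TARS2. The part of the dilution in these differences was not tested.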

How the results depend on the processing

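No called gene changed its direction under any alternative. Counts are given as cytosolic and then mitochondrial genes. DESeq2 called 2 cytosolic genes in COAD and 0 in PRAD, DESeq2 size factors 0 in PRAD, the saturation correction 0 in PRAD, and the fit of all 24 libraries 0 cytosolic in PRAD, 0 mitochondrial in COAD and 2 in PAAD. Without the length trend, 0 mitochondrial genes were called in COAD, and 5 and 3 in PRAD. Without the length and GC trends (added after seeing the data) the counts were 2 cytosolic in COAD, 3 mitochondrial in PAAD, and 7 and 4 in PRAD. Of all genes, 270 were then called higher and 418 lower in COAD, 1112 and 1226 in PAAD and 692 and 1757 in PRAD. The cause of these shifts was not tested.

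The labels do not say that a replicate number marks a shared batch, and correlations of same-numbered control and Ocoxin libraries (-0.00513 to 0.407) were not all above 0.1 in any line, so the numbers were not taken as pairs. Differently numbered libraries correlated at -0.312 to 0.103, and 4 of 6 libraries in COAD and TNBC and 5 of 6 in PAAD and PRAD correlated best with their own number, a hint from the data and not from the design. With the replicate block, 6 cytosolic genes were called in COAD, 3 mitochondrial in PAAD, and 10 and 4 in TNBC. The block called more of all genes too, with 865 higher and 1060 lower of 17659 in COAD. In PAAD it called 2090 and 1908 of 17280 genes and in TNBC 2824 and 3054 of 17352. With the block and the length trend removed the synthetase counts were 7 and 3 in COAD, 3 mitochondrial in PAAD, 7 and 7 in PRAD and 4 mitochondrial in TNBC. Of all genes, 769 were then called higher and 1414 lower in COAD and 1853 and 2109 in PAAD. In PRAD these were 968 and 2700 of 17070 genes and in TNBC 2260 and 3368. With the block and both trends removed the synthetase counts were 9 and 4 in COAD, 3 mitochondrial in PAAD, 7 and 7 in PRAD and 10 and 5 in TNBC. All genes called higher and lower were then 883 and 1754 in COAD and 1563 and 1823 in PAAD. They were 1523 and 3962 in PRAD and 2319 and 3408 in TNBC.

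Genes that differed between COAD and PAAD numbered 14 with the block. Between COAD and PRAD they numbered 1 with DESeq2, 2 with the saturation correction, 5 with the block, 1 with the block and the length trend removed and 2 with the block and both trends removed. Between COAD and TNBC they were 3 without the filter, 12 with the block, 14 with the block and the length trend removed and 13 with both. Between PAAD and PRAD they were 1 without the filter, 6 without the length trend, 7 without both trends, and 14 and 15 with the block added. Between PAAD and TNBC they were 2 without the filter, 7 with the block, 7 with the block and the length trend removed and 10 with both. Between PRAD and TNBC they were 2 with the block, 3 without the length trend, 4 without both trends, and 11 and 11 with the block added. Of all 24631 genes, the block alone called 1214 differences above 0 and 1367 below 0 between COAD and PAAD, against 410 and 438 without it. For COAD against PRAD it called 325 and 421. With the length trend also removed these were 957 and 341, and with both trends removed 1245 and 397. In the same order it called 2043 and 1662, 1816 and 1755, and 2031 and 1954 for COAD against TNBC. For PAAD against PRAD this order gave 1181 and 757, 2402 and 603, and 2619 and 653. For PAAD against TNBC it gave 1625 and 925, 1661 and 977, and 1703 and 995. For PRAD against TNBC it gave 1079 and 1107, 813 and 2203, and 899 and 2461. Without the block, PAAD against PRAD had 448 and 363, then 1066 and 318 without the length trend and 1467 and 387 without both trends. For PRAD against TNBC these were 504 and 381, 417 and 985, and 506 and 1338.

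With 1 library left out, the cytosolic count was 1 in COAD, 4 (without PAAD Ocoxin replicate 1) to 9 in PAAD, 0 in PRAD and 5 to 7 in TNBC, and the mitochondrial count 0 to 1 in COAD, 0 to 1 in PAAD, 0 in PRAD and 1 to 3 in TNBC. In PRAD the calls over all genes fell as well, from 409 higher and 99 lower to 3 and 0 without Ocoxin replicate 2. Differences numbered 6 to 10 between COAD and PAAD, 0 between COAD and PRAD, 3 to 9 between COAD and TNBC, 1 to 3 between PAAD and PRAD, 2 to 5 between PAAD and TNBC and 1 between PRAD and TNBC. PRAD had the lowest depth of the 4 lines.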
